A study of Mus musculus with 2 samples.

Results

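The proteasome genes of CD4+ CD25+ T cells were described in single cells of lymph node and spleen. The members are the 50 rows, of 31056 in the gene table, whose symbol starts with Psma, Psmb, Psmc, Psmd, Psme, Psmf or Psmg and a digit, pseudogenes left out. Of these, 31 encode subunits of the constitutive 26S proteasome, 14 in the core and 17 in the cap, and 5 are the immunoproteasome genes Psmb8, Psmb9, Psmb10, Psme1 and Psme2. A further 7 encode assembly chaperones (Psmg1 to Psmg4, Psmd5, Psmd9 and Psmd10) and 3 the activators Psme3 and Psme4 and the inhibitor Psmf1. The last 4 are Psme2b, a near copy of Psme2, the tissue-restricted core subunits Psma8 and Psmb11, and Psmc3ip, which carries the prefix but is not a proteasome subunit.

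The mice were healthy females of the genotype Mycfl/flFoxp3Cre/WT, so both Myc alleles are floxed and Cre comes from 1 copy of the X-linked Foxp3 gene. Cells in which the Cre allele is the active one and cells that use the wild-type allele live side by side in each female. YFP-positive and YFP-negative cells went together into 1 Chromium lane for lymph node and 1 for spleen after the sort, with the 10x 3' V2 kit. There is thus 1 library per tissue, no animal is named for any cell, and no library comes from mice with unfloxed Myc. No test can be made, and every confidence interval (CI) below is at 95% and covers counting error only, except for list medians, where it reflects the spread among members. Cells of 1 library are not replicates.

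The 26S proteasome degrades proteins marked with ubiquitin. Its barrel-shaped core is built of alpha rings, which gate the entrance, around beta rings that hold the cutting sites of Psmb5, Psmb6 and Psmb7, and a cap of ATPases, other base subunits and a lid binds, unfolds and deubiquitinates the substrate. In lymphocytes and in cells that have met interferon, Psmb8, Psmb9 and Psmb10 take the places of Psmb5, Psmb6 and Psmb7 in newly built cores, and the PA28 ring of Psme1 and Psme2 can bind the core in place of the cap, which favours peptides for presentation on class I molecules.

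Promoter sequences are given for the 3 immunoproteasome catalytic genes and for Psmb5, since the largest contrasts below separate these 2 kinds of catalytic subunit. Of the 50 members, 42 have an entry in the RefSeq promoter table (GRCm38.p6), a window from 250 bases before the start to 50 after it. Each line holds the 150 bases before the start, 5′ to 3′ on the strand of the gene, and capitals mark the motif found. In Psmb8 (chr17:34198045-34198194, plus strand) this is a GAS motif, in Psmb10 (chr8:105938393-105938542, minus strand) an E-box and in Psmb5 (chr14:54617996-54618145, minus strand) the core of an antioxidant response element (ARE). Psmb9 (chr17:34187331-34187480, minus strand) held none of the motifs searched. The windows of Psmb8 and Psmb9 lie within the GENCODE bounds of these genes given below, downstream of their outermost annotated starts. The bases before those outermost starts were not searched for these 2 genes.
Psmb8: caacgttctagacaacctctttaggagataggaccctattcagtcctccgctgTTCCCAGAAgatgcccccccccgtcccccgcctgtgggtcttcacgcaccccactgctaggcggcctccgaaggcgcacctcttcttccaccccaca
Psmb9: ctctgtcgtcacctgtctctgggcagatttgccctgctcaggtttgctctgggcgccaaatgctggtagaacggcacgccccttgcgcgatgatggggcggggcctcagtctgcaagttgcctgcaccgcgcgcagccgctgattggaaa
Psmb10: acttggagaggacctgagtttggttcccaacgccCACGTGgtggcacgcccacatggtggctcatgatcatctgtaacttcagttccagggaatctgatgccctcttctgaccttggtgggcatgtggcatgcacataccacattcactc
Psmb5: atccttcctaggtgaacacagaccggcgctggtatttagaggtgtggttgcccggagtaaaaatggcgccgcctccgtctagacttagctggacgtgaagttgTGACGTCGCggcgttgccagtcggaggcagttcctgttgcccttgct
Motifs were searched on both strands. The interferon-stimulated response element core, TTTC and TTTC with any 2 bases between (GAAA and GAAA on the other strand), occurred in 5 of the 42 members (Psmb3, Psmd4, Psmd9, Psme1 and Psmg4) and in 3.44% of all 32851 windows. Among immunoproteasome genes only Psme1 held it, as TTTCGCTTTC, 9 bases after the start. The window of Psme1 also lies downstream of the outermost annotated start of its gene, and the bases before that start were not searched. The GAS motif TTCNNNGAA was in 3 members (Psmb8, Psmd2 and Psmg1) and in 8.3% of windows. In Psmb8 it begins 97 bases before the start. The ARE core TGACNNNGC was in 6 members (Psmb5, Psmb6, Psmc6, Psmd12, Psmd9 and Psme4) and in 12.4% of windows, and none of these is an immunoproteasome gene. It lies 47 bases before the start in Psmb5 and 9 bases before it in Psmb6. Bases after the start lay in a GENCODE transcript of the gene, on the same strand, for 38 of 45 member windows. The window of Psmb6 was not among them. The E-box CACGTG, a site of Myc and related factors, was in 4 members (Psma4, Psmb10, Psmd9 and Psme3) and in 7.15% of windows. A match is a string of letters and no evidence of binding.

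Filtering kept 4820 cells of lymph node, with 13053739 unique molecular identifiers (UMIs) and a median of 2031 per cell, and 6543 cells of spleen, with 16641089 UMIs and a median of 1935. The libraries shared 53 cell barcodes, 45 of them among kept cells. T cell markers (5 of 5 detected) were present in most cells, with at least 2 UMIs in 97.3% (lymph node) and 97.4% (spleen), and the 5 Treg markers together reached 1481 and 1565 CPM, the UMIs of a gene per 1000000 UMIs of its group. B cell markers were at 258 and 189 CPM, and haemoglobin genes at 326 CPM in lymph node and 0.961 CPM in spleen. A gate is a cell with at least 1 raw UMI of the gate gene, against cells with 0, within 1 library. The gates held 1007 and 1239 cells for Foxp3, 379 and 549 for ICRE, 223 and 229 for Klrg1, 240 and 522 for Ifit1, 896 and 1134 for Tnfrsf9, and 923 and 1373 for Ly6c1, in lymph node and spleen. ICRE is a feature that the submitters added to the gene table, and its sequence was not given in the sources used here. A UMI of a gate gene does not prove expression in that cell. Cells with at least 2 B cell marker UMIs (168 and 184 cells, median 3265.5 and 2421.5 UMIs) held a Foxp3 UMI in 18.5% and 15.8%, against 20.5% and 18.3% of cells without B cell UMIs (median 1968.5 and 1886 UMIs). For Klrg1 these shares were 6.55% and 4.89% versus 4.30% and 3.18%, higher in the B marker cells. They were 7.14% and 3.80% versus 7.85% and 8.69% for ICRE, 16.1% and 10.9% versus 18.4% and 17.1% for Tnfrsf9, 2.98% and 4.35% versus 5.24% and 7.88% for Ifit1, and 11.9% and 14.7% versus 19.6% and 21.4% for Ly6c1. For Foxp3, Klrg1 and Ifit1 in both tissues, and for ICRE and Tnfrsf9 in lymph node, the CI of the B marker share includes the share of the other cells. These gates are to be read with that limit. Of the B marker cells, 66.7% and 61.4% also had at least 2 T cell marker UMIs, and doublets were not removed.

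Proteasome transcripts made up 0.763% (CI 0.758 to 0.768) of lymph node UMIs and 0.800% (CI 0.796 to 0.805) of spleen UMIs, with a median of 15 UMIs per cell in both. The 5 immunoproteasome genes alone gave 29.0% and 27.6% of these. Psmb8, the interferon-inducible subunit that replaces Psmb5, was the highest member in both tissues, at 841 CPM in lymph node and 844 CPM in spleen. These are UMIs of 3′ ends, 1 per captured molecule, so they carry no gene length term, but capture can differ between genes.

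**Figure D1:**
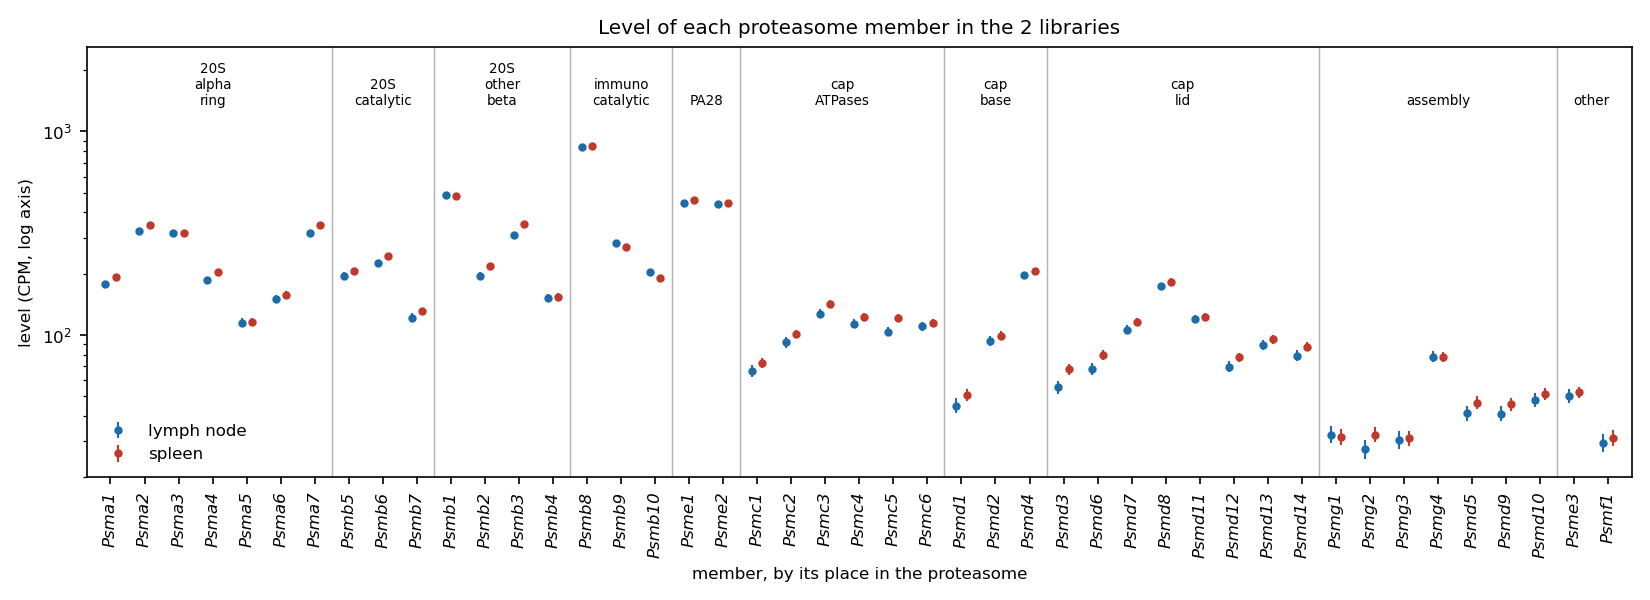
Level of each member with at least 20 CPM, Psme2b left out, in the lymph node (blue) and spleen (red) libraries, as CPM of summed UMIs on a log axis, grouped by place in the proteasome; bars are 95% Poisson intervals of counting. Psmb8, at 841 and 844 CPM, stands above every other member shown.

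The genes named most below are placed on GRCm38. Psmb8 (ENSMUSG00000024338) on chromosome 17 from 34197721 to 34201454 (plus strand) and Psmb9 (ENSMUSG00000096727) on chromosome 17 from 34181987 to 34187764 (minus strand) are neighbours in the class II region of the histocompatibility complex. Psmb10 (ENSMUSG00000031897) on chromosome 8 from 105935735 to 105938444 (minus strand) lies apart from them. Psme1 (ENSMUSG00000022216) on chromosome 14 from 55578123 to 55581529 (plus strand) and Psme2 (ENSMUSG00000079197) on chromosome 14 from 55587441 to 55591113 (minus strand) lie close together. The constitutive catalytic genes are Psmb5 (ENSMUSG00000022193) on chromosome 14 from 54614119 to 54618022 (minus strand), Psmb6 (ENSMUSG00000018286) on chromosome 11 from 70525367 to 70527858 (plus strand) and Psmb7 (ENSMUSG00000026750) on chromosome 2 from 38588036 to 38644087 (minus strand).

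By the mean CPM of both tissues, the core reached 3369 CPM, of which the alpha ring gave 1632, the 3 constitutive catalytic subunits 562 and the other 4 beta subunits 1175. The cap reached 1784 CPM, with 644 from the 6 ATPases, 346 from the other base subunits and 795 from the lid. The 3 immunoproteasome catalytic subunits together had 1316 CPM, above the 562 CPM of the subunits whose places they take. PA28 had 895 CPM, split evenly between Psme1 (447 CPM in lymph node and 460 in spleen) and Psme2 (437 and 446 CPM). The assembly chaperones had 307 CPM in all.

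The beta subunits without a cutting site were led by Psmb1, at 487 and 483 CPM, followed by Psmb3 at 310 and 351 CPM. Among the alpha subunits, Psma2 (324 and 348 CPM), Psma7 (317 and 345 CPM) and Psma3 (317 and 316 CPM) were the highest, and Psma5 (115 and 116 CPM) the lowest. So the subunits of 1 ring, which the assembled particle holds in equal number, differed in transcript level well beyond their counting intervals. The highest ATPase was Psmc3 at 127 and 142.5 CPM and the lowest Psmc1 at 66.7 and 73.0 CPM. In the lid, Psmd8 led at 173 and 183 CPM, while Psmd14, the deubiquitinase of the lid, was at 79.0 and 87.6 CPM. Psmd4, a ubiquitin receptor of the cap, was at 197 and 206 CPM.

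Of the 50 members, 46 had a mean of at least 20 CPM and entered the lists, out of 5048 such genes in all. The other 4 were Psme4 (PA200, an activator), at 9.81 and 10.6 CPM, Psmc3ip at 7.97 and 7.99 CPM, the testis-enriched Psma8 with 1 UMI in lymph node and 3 in spleen, and Psmb11, the subunit of the thymic cortex, with 0 UMIs in both.

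Between the tissues, constitutive subunits were slightly higher in spleen and immunoproteasome genes were level. Of the 31 constitutive subunits, 29 were higher in spleen, where 55.3% of all genes tested were, and the exceptions, Psmb1 and Psma3, differed by less than their counting intervals. Their median log2 ratio of spleen over lymph node was 0.12 (CI over members 0.08 to 0.14), against 0.016 for all genes. The summed level was 5325 CPM in spleen and 4982 CPM in lymph node, 1.07-fold higher (CI 1.06 to 1.08). No constitutive subunit reached a ratio of 5 to 4, which is used as the call below and which 3.15% of all genes reached in this direction. The cap was higher in 17 of 17 subunits, with a summed ratio of 1.09 (CI 1.07 to 1.11), and the core in 12 of 14, with 1.06 (CI 1.05 to 1.07).

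Psmd3, a lid subunit, gave the largest of these differences, at 67.7 CPM in spleen and 55.2 CPM in lymph node, 1.23-fold (CI 1.12 to 1.35). The ATPase Psmc5 was at 121 and 104 CPM, 1.166-fold (CI 1.088 to 1.2503), and the lid subunit Psmd6 at 79.7 and 68.1 CPM, 1.17-fold (CI 1.07 to 1.28). In the core, Psmb3 was 1.13-fold higher (CI 1.09 to 1.18) and Psmb2 1.12-fold (CI 1.07 to 1.18), as was the ATPase Psmc3 (CI 1.05 to 1.19). These differences are small but their intervals leave out equality. The immunoproteasome sum was 2211 CPM in each tissue, a ratio of 1.0 (CI 0.985 to 1.02). Within it, Psmb10 was 1.07-fold lower in spleen (203 CPM in lymph node, 191 in spleen, CI 1.01 to 1.12) and Psmb9 was at 283 and 271 CPM, with an interval that includes equality. Psmb8 was level in both. Other marker lists moved between the libraries too: cycling markers summed to 206 CPM in lymph node and 135.5 in spleen, and interferon response markers to 470 and 545 CPM. Their part in the proteasome values was not tested, and tissue and library cannot be told apart.

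The 6 gates gave clearly different pictures, and the direction was mostly shared by the tissues. Constitutive subunits, the PA28 pair and the immunoproteasome catalytic subunits moved apart in the same way in both tissues in 2 of them. With Ifit1, an interferon-stimulated gene, all 5 immunoproteasome genes were higher and the constitutive subunits were not. With Tnfrsf9, the costimulatory receptor 4-1BB that marks activated Treg cells, the constitutive subunits and PA28 were higher and Psmb8, Psmb9 and Psmb10 were not. A split like that of Tnfrsf9 was also seen with Klrg1 in spleen, at 1.16-fold, 1.19-fold and 1.03-fold, and not in lymph node. With ICRE the tissues differed: PA28 was 1.14-fold lower in lymph node, and Psmb8 to Psmb10 were 1.13-fold higher in spleen.

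**Figure D2:**
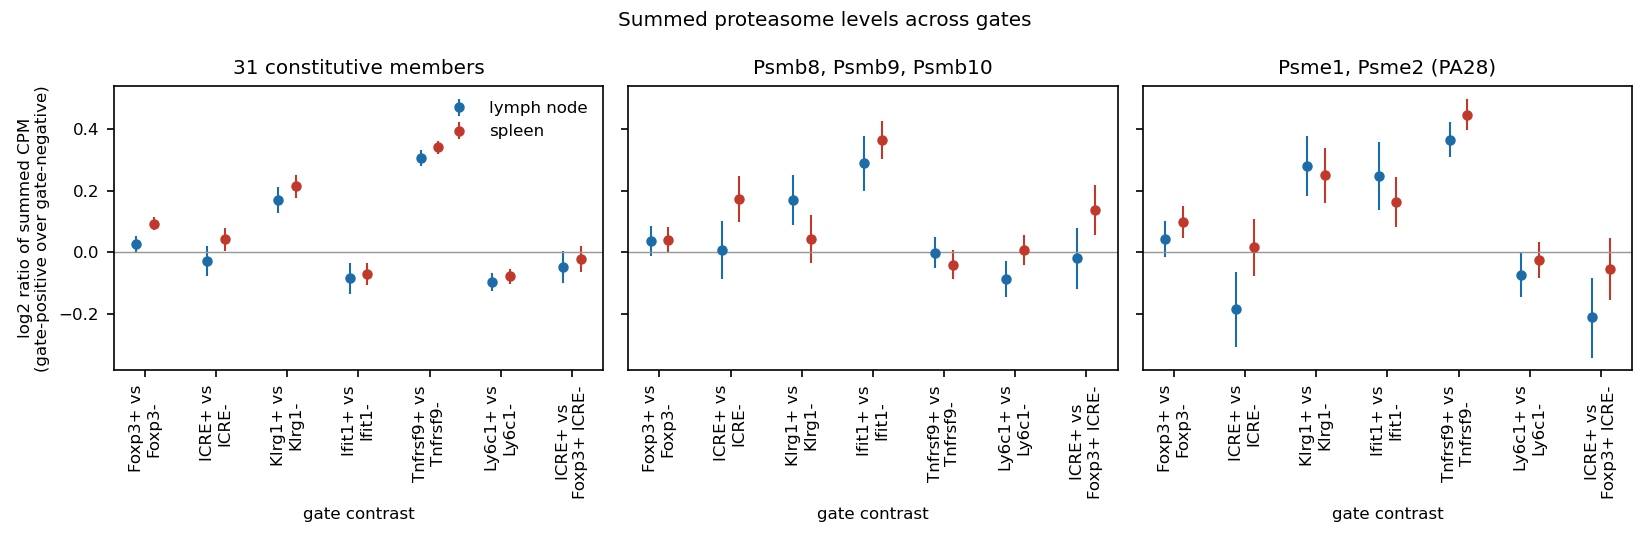
Log2 ratio of summed CPM in gate-positive over gate-negative cells, for the 31 constitutive subunits, the 3 immunoproteasome catalytic subunits and PA28 (Psme1 and Psme2), in lymph node (blue) and spleen (red); bars are 95% counting intervals. Tnfrsf9 stands highest for the constitutive sum and for PA28, Ifit1 for Psmb8 to Psmb10.

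Ifit1-positive cells had higher immunoproteasome transcripts in both tissues. All 5 genes were higher, where 44.7% of all genes tested were higher in lymph node and 42.3% in spleen. The summed level was 2643 CPM in Ifit1-positive and 2187 CPM in Ifit1-negative lymph node cells, 1.21-fold (CI 1.15 to 1.27), and 2648 and 2172 CPM in spleen, 1.22-fold (CI 1.18 to 1.26). The catalytic subunits alone were 1.22-fold (CI 1.15 to 1.30) and 1.29-fold higher (CI 1.23 to 1.35), PA28 1.19-fold (CI 1.10 to 1.28) and 1.12-fold (CI 1.06 to 1.18). At a ratio of 5 to 4 or more were 2 of the 5 genes in each tissue, beside 10.8% and 5.45% of all genes in that direction.

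Psmb10, which replaces Psmb7, differed most in lymph node, at 307 CPM with Ifit1 and 197 CPM without, 1.56-fold (CI 1.35 to 1.80). In spleen it was at 260.5 and 184 CPM, 1.41-fold (CI 1.26 to 1.58). Psmb9, which replaces Psmb6, was 1.22-fold higher in lymph node (340 versus 280 CPM, CI 1.06 to 1.39) and 1.41-fold in spleen (370 versus 262 CPM, CI 1.28 to 1.55). Psmb8 was the highest of these genes and differed less in relative terms, at 955 versus 834 CPM in lymph node (1.14-fold, CI 1.06 to 1.24) and 1013 versus 829 CPM in spleen (1.22-fold, CI 1.16 to 1.29). Psme1 was 1.27-fold (559 versus 441 CPM, CI 1.14 to 1.41) and 1.13-fold higher (513 versus 455 CPM, CI 1.04 to 1.22). Psme2 was 1.11-fold higher in both tissues, with an interval that includes equality in lymph node (0.987 to 1.24) and not in spleen (1.03 to 1.20).

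The constitutive partners stood on the other side of equality. Psmb5 was 1.08-fold lower in Ifit1-positive lymph node cells (CI 0.904 to 1.31) and 1.06-fold lower in spleen (CI 0.933 to 1.20), Psmb6 1.11-fold and 1.03-fold lower, and Psmb7 1.05-fold and 1.19-fold lower (spleen CI 1.01 to 1.42). Of the 31 constitutive subunits, 12 were higher in lymph node and 8 in spleen, with median log2 ratios of -0.11 (CI -0.15 to 0.02) and -0.08 (CI -0.18 to -0.04), where all genes had -0.032 and -0.04. Their sums were 1.06-fold (CI 1.02 to 1.10) and 1.05-fold lower (CI 1.02 to 1.08). Lower by at least 5 to 4 were 4 and 2 of them, beside 16.9% and 12.3% of all genes. This small shift was not stable: without cells that carry B cell, myeloid or erythroid UMIs the lymph node median was 0.032, and without the 6% of cells with the most UMIs it was 0.015, against -0.00092 in spleen.

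Of the cap, lower levels were found for 6 of 6 ATPases in lymph node and 5 of 6 in spleen, where 44.7% and 42.3% of all genes were higher, with sums 1.18-fold (CI 1.06 to 1.31) and 1.14-fold lower (CI 1.07 to 1.23). Psmc1 was 1.40-fold lower (CI 0.989 to 2.05) and 1.28-fold lower (CI 1.02 to 1.62), and Psmc4 1.20-fold (CI 0.937 to 1.57) and 1.18-fold lower (CI 0.995 to 1.40). The chaperone Psmg2 was 1.74-fold lower in lymph node, from 11 UMIs (CI 0.961 to 3.52), and 1.27-fold lower in spleen (CI 0.905 to 1.84). Counts this low leave wide intervals, most of which include equality.

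The differences were larger in cells with more Ifit1 UMIs. In lymph node, Psmb8 to Psmb10 summed to 1311 CPM in 4580 cells with 0 Ifit1 UMIs, 1512 CPM in 172 cells with 1, and 1808 CPM in 68 cells with 2 or more. In spleen the sums were 1275, 1519 and 1892 CPM, over 6021, 351 and 171 cells. PA28 went from 876 to 969 and 1206 CPM in lymph node and from 897 to 931 and 1152 CPM in spleen. Constitutive subunits went the other way, from 4997 to 4747 and 4629 CPM and from 5346 to 5132 and 5010 CPM.

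**Figure D3:**
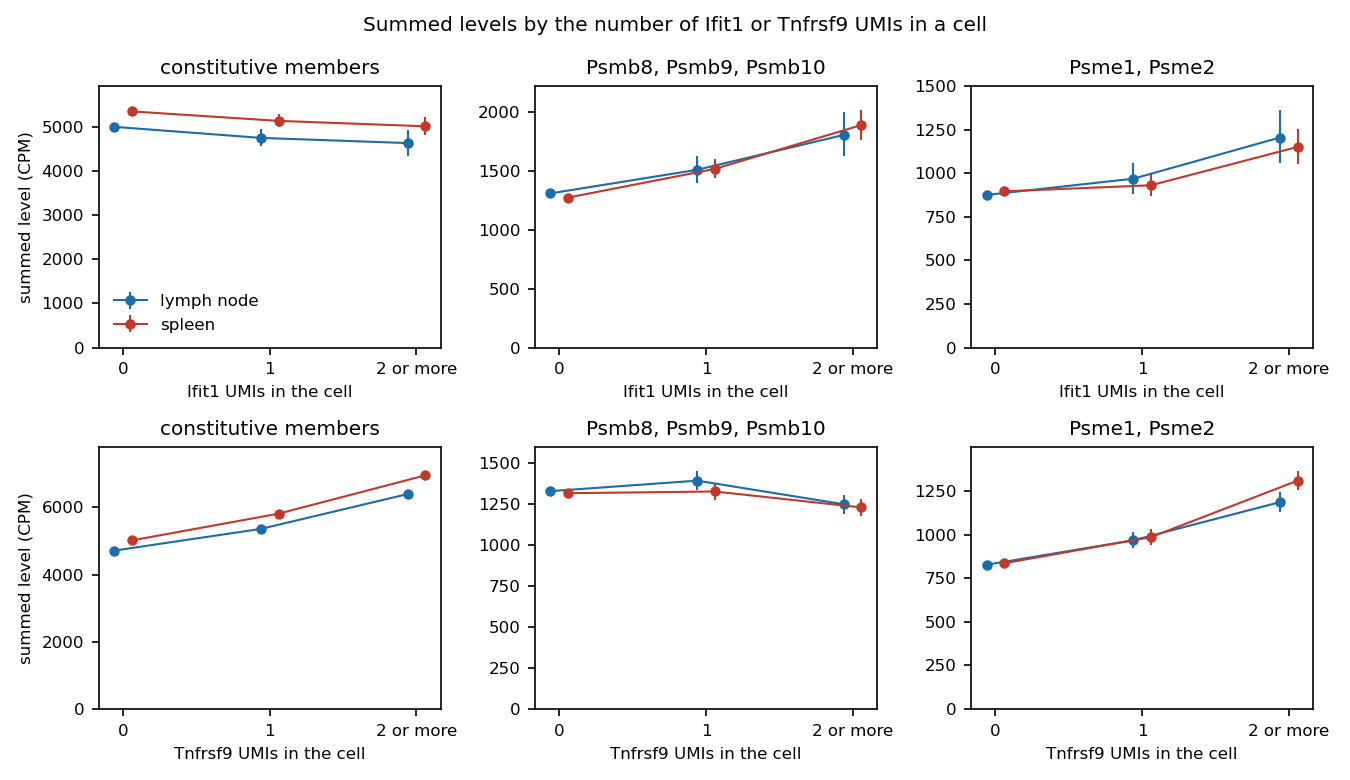
Summed CPM of the constitutive subunits, of Psmb8 to Psmb10 and of PA28 in cells with 0, 1, or 2 or more UMIs of Ifit1 (top) or Tnfrsf9 (bottom), lymph node blue and spleen red, with 95% counting intervals and axes that start at 0. Psmb8 to Psmb10 climb with Ifit1 UMIs, to 1808 and 1892 CPM, and do not climb with Tnfrsf9 UMIs, where the constitutive sum climbs to 6395 and 6951 CPM.

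Other genes of class I antigen processing were higher with Ifit1 as well, 9 of 10 in lymph node and 10 of 10 in spleen. Tap1, which carries peptides into the endoplasmic reticulum, was 1.43-fold (CI 1.21 to 1.69) and 1.42-fold higher (CI 1.26 to 1.60), and Tapbp, which holds class I molecules at that transporter, 1.50-fold and 1.46-fold. Irf1, a transcription factor of the interferon response, was 1.45-fold and 1.34-fold higher. Psmb9 and Tap1 lie head to head on chromosome 17 and overlap by 212 bases on opposite strands, and whether the counting used strand was not given in the sources used here. Psmb8 and Psmb10 also overlap antisense genes, Gm20496 over 2139 bases and Gm16156 over 2710 bases, whose reads cannot be told apart from theirs without strand. Interferon response markers, as a check of the gate, were at 1632 versus 406 CPM and 1674 versus 442 CPM. Cycling markers were at 182 versus 207 CPM in lymph node and 63.3 versus 142 CPM in spleen, and haemoglobin genes in lymph node at 104 versus 338 CPM. Median UMIs per cell were 2179 versus 2025.5 and 2124.5 versus 1924. The part of cycling, erythroid RNA and depth in the difference was not tested.

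Among cells with a Foxp3 or ICRE UMI alone, an alternative chosen after seeing the data, the immunoproteasome sum was 1.19-fold higher with Ifit1 in lymph node (62 versus 1299 cells, CI 1.08 to 1.29) and 1.23-fold higher in spleen (152 versus 1592 cells, CI 1.16 to 1.30). The catalytic subunits were 1.10-fold higher there in lymph node (CI 0.972 to 1.23), where Psmb8 had a log2 ratio of -0.045 in place of 0.19, and 1.29-fold in spleen (CI 1.19 to 1.38). The immunoproteasome difference was thus of like size in this narrower set, while its Psmb8 part in lymph node was not.

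Tnfrsf9-positive cells had higher constitutive proteasome transcripts in every subunit. All 31 were higher in both tissues, beside 60.7% of all genes in lymph node and 60.9% in spleen, and 16 and 23 of them reached 5 to 4, beside 20% and 23.1% of all genes. Their median log2 ratio was 0.34 (CI 0.25 to 0.42) in lymph node and 0.41 (CI 0.34 to 0.45) in spleen, against 0.079 and 0.090 for all genes. The summed level was 5831 versus 4713 CPM in lymph node, 1.24-fold (CI 1.22 to 1.26), and 6356 versus 5016 CPM in spleen, 1.267-fold (CI 1.248 to 1.286). Core and cap shared this size, at 1.24-fold each in lymph node and 1.27-fold each in spleen.

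Within the core, the catalytic subunits were 1.33-fold and 1.32-fold higher and the alpha ring 1.28-fold and 1.32-fold, above the other beta subunits at 1.13-fold and 1.17-fold. Psmb5, the chymotrypsin-like subunit, was at 239 versus 182 CPM in lymph node, 1.31-fold (CI 1.20 to 1.43), and at 255 versus 190 CPM in spleen, 1.34-fold (CI 1.24 to 1.44). Psmb6, the caspase-like subunit, was 1.33-fold (CI 1.23 to 1.44) and 1.31-fold higher (CI 1.22 to 1.40). Psmb7, the trypsin-like subunit, was 1.36-fold (CI 1.22 to 1.51) and 1.33-fold higher (CI 1.21 to 1.46). The 3 cutting subunits thus differed by nearly the same factor. Psma4, of the alpha ring, differed most among core subunits in the smaller of its tissue values, at 246.5 versus 167 CPM in lymph node (1.48-fold, CI 1.36 to 1.61) and 269 versus 183 CPM in spleen (1.47-fold, CI 1.36 to 1.58). Psmd1, the large scaffold subunit of the cap base, was 1.42-fold (CI 1.19 to 1.70) and 1.52-fold higher (CI 1.31 to 1.76). Psmb1 and Psmd4 differed least, at 1.06-fold in both tissues and at 1.08-fold and 1.04-fold.

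Psmb8, Psmb9 and Psmb10 did not follow. Their sum was 1325 versus 1327 CPM in lymph node, a ratio of 0.999 (CI 0.964 to 1.03), and 1278 versus 1314 CPM in spleen, 1.03-fold lower (CI 0.996 to 1.06). Psmb8 was at 853 versus 837 CPM and 836 versus 846 CPM, and Psmb10 at 195 versus 206 CPM and 181 versus 194 CPM, with intervals that include equality. PA28, in contrast, was 1.29-fold higher in lymph node (1066 versus 827 CPM, CI 1.24 to 1.34) and 1.36-fold in spleen (1140 versus 835 CPM, CI 1.32 to 1.41). Of the pair, Psme2 was at 551 versus 402 CPM in lymph node (1.37-fold, CI 1.30 to 1.45) and 593 versus 402 CPM in spleen (1.47-fold, CI 1.40 to 1.55), and Psme1 was 1.21-fold (CI 1.14 to 1.28) and 1.26-fold higher (CI 1.20 to 1.33). The genes grouped as immunoproteasome therefore split by role in this gate, the PA28 ring going with the constitutive subunits. Psme3, which forms the nuclear PA28 gamma ring, was 1.70-fold (73.0 versus 42.9 CPM, CI 1.44 to 2.01) and 1.72-fold higher (76.9 versus 44.8 CPM, CI 1.49 to 1.98).

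**Figure D4:**
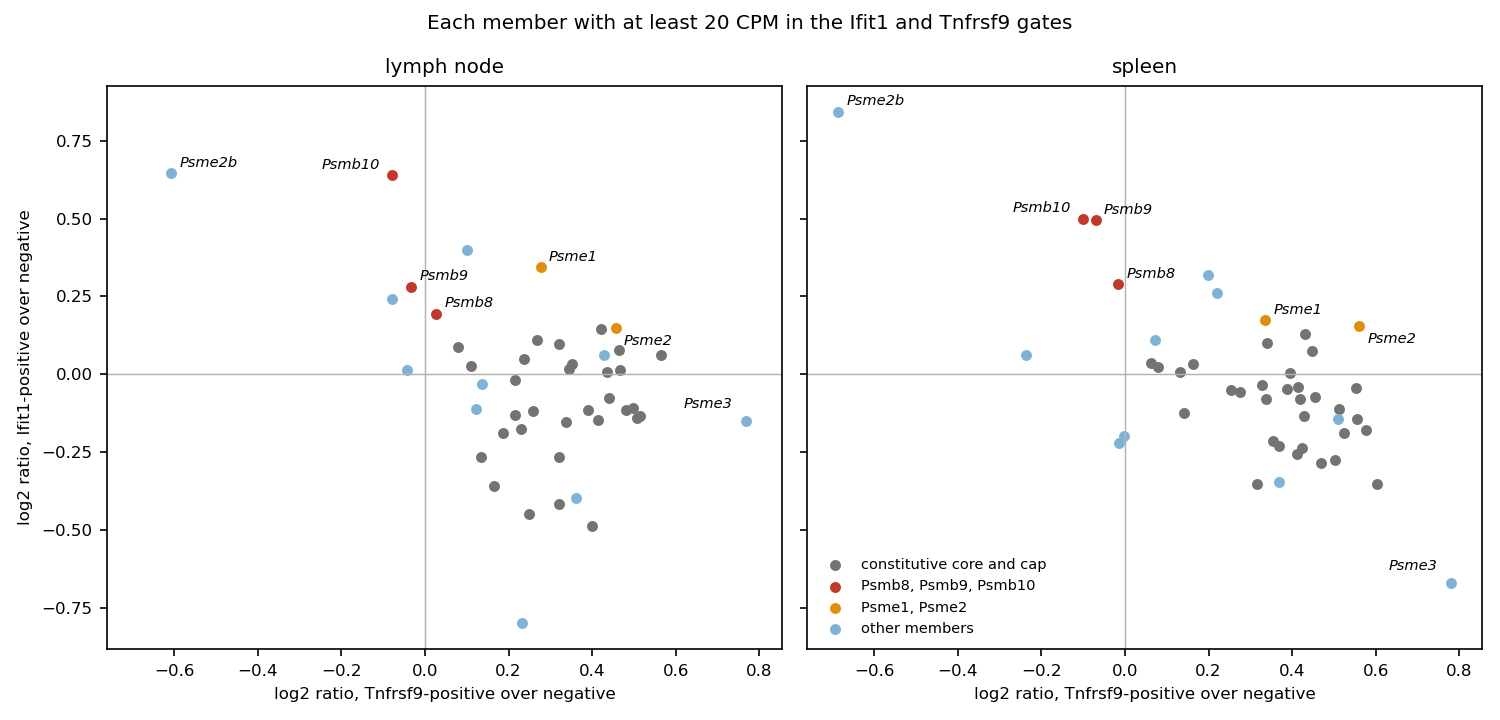
Each member with at least 20 CPM by its log2 ratio in Tnfrsf9-positive over Tnfrsf9-negative cells (x axis) and in Ifit1-positive over Ifit1-negative cells (y axis), lymph node left and spleen right; constitutive subunits grey, Psmb8 to Psmb10 red, Psme1 and Psme2 orange, others blue. The red points lie high and near 0 on the x axis, the grey points to the right of 0, and the orange points both high and right.

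With 0, 1, and 2 or more Tnfrsf9 UMIs the constitutive sum was 4713, 5360 and 6395 CPM in lymph node (3924, 553 and 343 cells) and 5016, 5812 and 6951 CPM in spleen (5409, 673 and 461 cells). PA28 was at 827, 967 and 1186 CPM and at 835, 985 and 1309 CPM, while Psmb8 to Psmb10 were at 1327, 1391 and 1247 CPM and at 1314, 1325 and 1227 CPM. The rise was thus seen in constitutive subunits and PA28, while the sum of the 3 catalytic subunits was lowest at 2 or more UMIs. Its CI there was 1189 to 1306 CPM in lymph node, against 1304 to 1349 CPM with 0 UMIs. In spleen it was 1177 to 1279 CPM, against 1294 to 1334 CPM.

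Beside the 60.7% and 60.9% of all genes that were higher with Tnfrsf9, 5 of 7 assembly chaperones were higher in both tissues, a share near that background, with Psmg1, which helps to build the alpha ring, at 1.35-fold and 1.42-fold. Of 10 partner genes that act with the proteasome, 8 were higher in each tissue, beside the same background. Pomp, the maturation factor of the core, was 1.28-fold and 1.43-fold higher, Vcp, the segregase that feeds it substrates, 1.32-fold and 1.24-fold, and Usp14, a deubiquitinase of the cap, 1.49-fold and 1.27-fold. Nfe2l2 (NRF2), a factor that binds AREs, was lower, with ratios of 0.749 and 0.563. Antigen processing genes were higher in 1 of 10 members in lymph node and 3 of 10 in spleen, below that background.

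Tnfrsf9-positive cells differed in other ways as well. They held more UMIs, with medians of 2459.5 versus 1964 in lymph node and 2434 versus 1869 in spleen. Cycling markers were at 324 versus 168 CPM and 234 versus 106 CPM, and NK or innate lymphoid markers at 266 versus 99.6 CPM and 319 versus 63.9 CPM. Treg markers were at 1814 versus 1376 CPM and 2122 versus 1397 CPM, B cell markers at 95.3 versus 309 CPM and 48.5 versus 231 CPM, and haemoglobin genes in lymph node at 124 versus 390 CPM. The part of these in the proteasome differences was not tested. With Tnfrsf9-negative cells weighted to the UMIs of the positive cells, the constitutive medians were 0.24 and 0.27, and without cells that carry cycling UMIs they were 0.28 and 0.41. Among cells with a Foxp3 or ICRE UMI the constitutive sum was 1.20-fold (CI 1.17 to 1.24) and 1.21-fold higher (CI 1.19 to 1.24). The constitutive difference was thus smaller at matched depth in both tissues and present in all these settings, with at least 30 of 31 subunits higher. In the cells with a Foxp3 or ICRE UMI, Psmb8 to Psmb10 had a ratio of 1.01 in lymph node (CI 0.949 to 1.07). In spleen they were 1.10-fold lower (CI 1.04 to 1.16).

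The share of the immunoproteasome among catalytic transcripts brings both gates together. Of the UMIs of the 6 catalytic subunits, Psmb8, Psmb9 and Psmb10 gave 70.9% (CI 70.4 to 71.5) in lymph node and 69.2% (CI 68.7 to 69.7) in spleen. In Ifit1-positive cells the share was 76.1% (CI 73.8 to 78.3) against 70.6% in lymph node and 75.1% (CI 73.5 to 76.7) against 68.6% in spleen. In Tnfrsf9-positive cells it was 66.4% (CI 65.2 to 67.6) against 72.5%, and 64.1% (CI 63.0 to 65.2) against 70.8%. The gates thus lay on opposite sides, by way of different subunits: in the first the immunoproteasome ones were higher, in the second the constitutive ones. These are shares of transcripts, not of assembled particles.

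**Figure D5:**
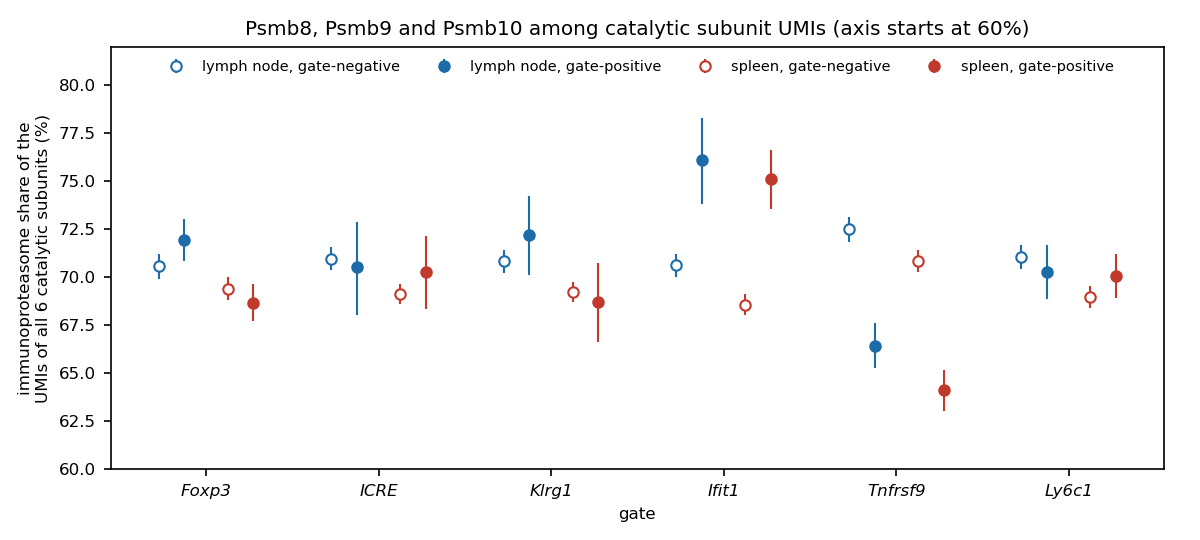
Share of Psmb8, Psmb9 and Psmb10 among the UMIs of the 6 catalytic subunits, in percent from an axis start of 60%, in gate-negative (open) and gate-positive (filled) cells of lymph node (blue) and spleen (red), with 95% Clopper-Pearson intervals. The share lies above that of negative cells with Ifit1, at 76.1% and 75.1%, and below it with Tnfrsf9, at 66.4% and 64.1%.

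By pair, Psmb8 gave 81.1% of the UMIs of Psmb8 and Psmb5 in lymph node and 80.4% in spleen. Psmb9 gave 55.6% (CI 54.4 to 56.8) and 52.5% (CI 51.4 to 53.6) of those of Psmb9 and Psmb6, and Psmb10 62.5% (CI 61.1 to 64.0) and 59.4% (CI 58.0 to 60.7) of those of Psmb10 and Psmb7. The pair of Psmb10 and Psmb7 ranged most widely over these gates in lymph node, from 56.2% with Tnfrsf9 to 72.7% with Ifit1, and in spleen it went from 52.8% to 70.2%. Psmb9 of its pair went from 49.9% to 62.4% and from 46.6% to 60.8%. Psmb8 of its pair moved least, from 78.1% to 84.0% and from 76.7% to 83.9%.

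Klrg1, an inhibitory receptor of effector Treg cells, marked cells with higher constitutive and PA28 transcripts. Whether the constitutive difference exceeded that of genes in general depended on how depth was matched, as given below. Of 31 constitutive subunits, 27 were higher in lymph node and 25 in spleen, beside 57.6% and 57.3% of all genes, and 4 and 13 reached 5 to 4, beside 24.8% and 29.2%. The sums were 5560 versus 4939 CPM (1.13-fold, CI 1.09 to 1.16) and 6122 versus 5273 CPM (1.16-fold, CI 1.13 to 1.19), with medians of 0.19 (CI 0.06 to 0.24) and 0.23 (CI 0.14 to 0.38), against 0.072 and 0.089 for all genes. Psme2 was again the leading immunoproteasome gene, at 573 versus 427 CPM in lymph node (1.34-fold, CI 1.22 to 1.47) and 627 versus 434 CPM in spleen (1.44-fold, CI 1.33 to 1.57), while Psme1 was 1.10-fold higher in lymph node and 1.05-fold lower in spleen. Psmb8 to Psmb10 were 1.13-fold higher in lymph node and 1.03-fold higher in spleen, where the CI (0.975 to 1.09) includes equality.

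The lid subunit Psmd13 was at 125 versus 86.8 CPM in lymph node (1.44-fold, CI 1.18 to 1.75) and 147 versus 91.9 CPM in spleen (1.60-fold, CI 1.34 to 1.89), although with a gate of at least 2 UMIs its lymph node log2 ratio was -0.025. The alpha subunit Psma5 was 1.36-fold (CI 1.14 to 1.63) and 1.33-fold higher (CI 1.12 to 1.56), Psmd14 1.38-fold (CI 1.11 to 1.70) and 1.30-fold (CI 1.06 to 1.57), and Psmd8 1.23-fold (CI 1.06 to 1.43) and 1.27-fold (CI 1.11 to 1.46). Of the catalytic subunits, Psmb7 was 1.23-fold and 1.33-fold higher, while Psmb6 was 1.10-fold lower in lymph node and 1.23-fold lower in spleen (CI 1.07 to 1.42). Cutting subunits thus lay on both sides of equality in this gate. Pomp was 1.60-fold and 1.53-fold higher.

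Klrg1-positive cells were also deeper, with medians of 3209 versus 1991 and 3384 versus 1907 UMIs, and had cycling markers at 620 versus 175 CPM and 697 versus 98.8 CPM and Treg markers at 2485 versus 1406 CPM and 2954 versus 1474 CPM. A Tnfrsf9 UMI was found in 31.8% and 38.0% of them, beside 18.6% and 17.3% of all cells. The part of these in the difference was not tested. Scaled without ribosomal and mitochondrial UMIs, the median of all genes moved to -0.076 and -0.096, the constitutive medians were 0.040 and 0.048, and the spleen immunoproteasome sum had a log2 ratio of -0.053. With negative cells weighted to the UMIs of positive cells the constitutive medians were 0.093 in lymph node and 0.042 in spleen, no higher than the 0.11 of all genes in each. In each of these settings the constitutive medians were smaller than those given first. Without ribosomal and mitochondrial UMIs, however, the median of all genes fell with them, and the subunits still lay above it. With the weighting they did not. With cells thinned to 1200 UMIs the constitutive medians were 0.20 in lymph node and 0.21 in spleen, above the 0.072 and 0.089 of all genes.

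Ly6c1, a surface protein of resting T cells, marked cells with slightly lower constitutive transcripts. Only 4 of 31 constitutive subunits were higher in lymph node and 5 in spleen, beside 37.2% and 30.1% of all genes, and none was lower by 5 to 4, beside 14% and 14.8%. The sums were 4712 versus 5039 CPM (1.07-fold lower, CI 1.05 to 1.09) and 5100 versus 5382 CPM (1.06-fold lower, CI 1.04 to 1.07). The medians of -0.15 (CI -0.17 to -0.04) and -0.07 (CI -0.12 to -0.04) stood beside -0.064 and -0.093 for all genes, so in spleen the subunits were no lower than genes in general. Psmb2 was 1.15-fold (CI 1.03 to 1.28) and 1.19-fold lower (CI 1.09 to 1.29), Psme3 1.27-fold (CI 1.02 to 1.60) and 1.32-fold lower (CI 1.10 to 1.59), and the base subunit Psmd2 1.17-fold (CI 0.997 to 1.37) and 1.22-fold lower (CI 1.07 to 1.39). The immunoproteasome sum was 1.06-fold lower in lymph node (CI 1.03 to 1.09) and level in spleen, at 2205 versus 2213 CPM. Treg markers were at 1079 versus 1567 CPM and 1104 versus 1680 CPM.

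Foxp3-positive cells, whose gate gene encodes the master transcription factor of Treg cells, differed little in proteasome transcripts. Of 31 constitutive subunits, 19 were higher in lymph node and 26 in spleen, beside 46.4% and 47.6% of all genes. The sums were 5049 versus 4957 CPM (1.02-fold, CI 1.0 to 1.04) and 5578 versus 5230 CPM (1.07-fold, CI 1.05 to 1.08), and those of the immunoproteasome 1.03-fold (CI 1.0 to 1.05) and 1.05-fold higher (CI 1.02 to 1.07). Psma4 was 1.14-fold (CI 1.04 to 1.24) and 1.19-fold higher (CI 1.10 to 1.28), Psmc1 1.14-fold (CI 0.986 to 1.32) and 1.22-fold (CI 1.08 to 1.38), and Psmb2 1.13-fold and 1.14-fold. Psme2 was 1.02-fold higher in lymph node and 1.15-fold in spleen (CI 1.10 to 1.21). Foxp3-positive cells had more UMIs (medians 2849 versus 1846 and 2940 versus 1793) and more cycling markers (374 versus 142 CPM and 302 versus 72.8 CPM). The spleen constitutive median of 0.07 changed sign with negative cells weighted to the same UMIs (-0.041), without cycling cells (-0.00087) and without the 6% of cells with the most UMIs (-0.017), and the lymph node median of 0.03 did so in these settings (-0.013, -0.037 and -0.0070) and without cells with B cell, myeloid or erythroid UMIs (-0.033). The lymph node immunoproteasome sum had a log2 ratio of -0.011 with that weighting. No direction can be given for these.

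ICRE-positive cells were compared with all ICRE-negative cells and with Foxp3-positive cells that lack an ICRE UMI. Whether ICRE marks the Cre allele is not stated in the sources used here. A cell without an ICRE UMI is not shown to lack ICRE, so the latter group cannot be named by allele. UMIs of both were held by 25 lymph node and 44 spleen cells, 6.60% and 8.01% of ICRE-positive cells. Of all cells, 20.9% and 18.9% held a Foxp3 UMI. ICRE-positive cells were shallower than ICRE-negative ones, with median UMIs of 1620 versus 2104 and 1663 versus 1989.5. The part of depth in this overlap was not tested. At least 2 Treg marker UMIs, Foxp3 included, were found in 66.5% and 65.8% of ICRE-positive cells. In ICRE-negative cells these shares were 69.2% and 65.2%. In Foxp3-positive ICRE-negative cells, each of which holds at least 1 such UMI by its gate, they were 94.3% and 94.2%. Against ICRE-negative cells, 13 of 31 constitutive subunits were higher in lymph node and 22 in spleen, beside 59% and 61.6% of all genes, with sums 1.02-fold lower and 1.03-fold higher. The immunoproteasome sum was 1.05-fold lower in lymph node (CI 0.995 to 1.10) and 1.08-fold higher in spleen (CI 1.04 to 1.12). Its catalytic subunits were 1.13-fold higher in spleen (CI 1.07 to 1.19) and level in lymph node, where PA28 was 1.14-fold lower (CI 1.04 to 1.24). Against Foxp3-positive ICRE-negative cells, 12 and 14 were higher, beside 58.4% and 59.2% of all genes. The sums were 4886 versus 5050 CPM (1.03-fold lower, CI 0.997 to 1.07) and 5471 versus 5554 CPM (1.02-fold lower, CI 0.987 to 1.04). The medians were -0.045 and -0.0082, against 0.081 and 0.088 for all genes. The CIs of both sums include equality and reach a 1.07-fold lower level in lymph node. Myc itself had ratios of 0.24 and 0.41 in this contrast.

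Single members differed more. Psma4 was at 125 CPM in ICRE-positive and 205.5 CPM in Foxp3-positive ICRE-negative lymph node cells, 1.65-fold lower (CI 1.32 to 2.07), and at 179 versus 230 CPM in spleen, 1.29-fold lower (CI 1.10 to 1.51). Psma4 is 1 of the 4 members with the E-box CACGTG in the promoter window. Of the other 3, Psmb10 was 1.05-fold lower in lymph node and 1.14-fold higher in spleen, Psmd9 1.43-fold higher and 1.03-fold lower, and Psme3 1.12-fold and 1.60-fold lower (spleen CI 1.15 to 2.25). These 3 were picked for the motif after their values were seen. Psme2 was 1.16-fold lower in both tissues (CI 1.02 to 1.33 and 1.05 to 1.29), and Psma5 1.29-fold and 1.21-fold lower. Psme1 was 1.15-fold lower in lymph node (CI 1.02 to 1.31) and 1.07-fold higher in spleen. Psmb9 was 1.09-fold lower in lymph node and higher in spleen, with a log2 ratio of 0.32 (ratio CI 1.11 to 1.40), but with a gate of at least 2 UMIs its spleen log2 ratio was -0.011. The chaperones Psmd5 and Psmd10 were 1.30-fold and 1.24-fold higher in lymph node and 1.26-fold and 1.21-fold higher in spleen, all with intervals that include equality.

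Depth and cycling differ strongly in this contrast, with median UMIs of 1620 versus 2859.5 and 1663 versus 2941, and cycling markers at 26.0 versus 382 CPM and 42.1 versus 305 CPM. With cells thinned to 1200 UMIs the constitutive medians were 0.070 and 0.032, against 0.078 and 0.089 for all genes. Without cycling cells they were 0.092 and 0.077, against 0.12 in each tissue. Scaled without ribosomal and mitochondrial UMIs they were -0.15 and -0.11, against -0.024 and -0.018. In these settings the subunits lay below genes in general, though the sign of their median changed. With Foxp3-positive ICRE-negative cells weighted to the UMIs of ICRE-positive cells they lay above, at 0.019 and 0.12 against 0.016 and 0.047. No direction of the constitutive subunits common to all settings can be read from this contrast.

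Psme2b stood apart from its near copy Psme2. It lies on chromosome 11 from 48945354 to 48946190 on the minus strand of GRCm38 and was at 41.4 CPM in lymph node and 47.5 CPM in spleen. In Ifit1-positive cells it was 1.56-fold higher in lymph node (63.0 versus 40.3 CPM, CI 1.12 to 2.14) and 1.79-fold in spleen (79.9 versus 44.5 CPM, CI 1.45 to 2.20), above the 1.11-fold of Psme2. In Tnfrsf9-positive cells it was 1.52-fold (CI 1.22 to 1.93) and 1.61-fold lower (CI 1.33 to 1.97), where Psme2 was higher. Of 403 windows of 98 bases in its last 500 bases, 146 also occur in Psme2 transcripts, so reads can be shared between the copies. It also lies wholly within Gm12185 on the same strand, which had an 8.05-fold higher level with Ifit1 in lymph node from 4 UMIs (CI 1.81 to 28.8) and 4.77-fold in spleen from 10 UMIs (CI 2.03 to 10.4). Psme2b also overlaps 9930111J21Rik1 by 41 bases on the same strand. Which of these transcripts the Psme2b UMIs came from cannot be told apart.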

How the data were processed

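Single-cell RNA was measured in lymph node and spleen, 1 library each. The authors deposited raw UMI counts per gene and barcode, from Cell Ranger 3.0.1 on mm10 per the submitters' processing notes, and the gene table carries 3 added features (EYFP, ICRE and CRE) per the file headers. Cells needed 500 or more detected genes and no more than 10% mitochondrial UMIs, and 259 barcodes of lymph node and 297 of spleen failed this. Doublets were not removed.

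UMIs of the cells of a gate were added up and scaled to CPM. No test is possible with 1 library a tissue. CPM has exact Poisson intervals, shares Clopper-Pearson intervals and ratios exact conditional ones (scipy 1.17.1, Python 3.11.15), all at 95%. List medians have a binomial interval over members that averaged 20 CPM or more. Thinning to 1200 UMIs dropped 252 and 525 shallower cells. Named in each contrast were the immunoproteasome and catalytic genes and the 4 other members with the largest ratio of like sign in both libraries (6 between tissues), beside members discussed for their role. The members and lists were chosen with earlier results of these data known. The ratio intervals were checked on simulated Poisson counts for the Tnfrsf9, Ifit1 and ICRE gates, without variation between cells. The other steps were not checked in this way. Gene positions were taken from GENCODE M21 and promoters from RefSeq (GRCm38.p6). The 12 alternatives covered cell filters, doublet-like cells, weights, scaling, gates and list minimums. The values of 1 gene of the antigen processing list are not reported here.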

Additional observations from a re-analysis of the deposited data

How the results depend on the processing

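Under the 12 alternatives, findings that kept their direction in every setting run included the constitutive median with Tnfrsf9 and the immunoproteasome sum with Ifit1, each in both tissues, and the constitutive median of spleen over lymph node. The constitutive medians with Klrg1 (from 0.040 and 0.042) and with Ly6c1 (up to -0.076 and -0.0032) kept theirs too, though some values lay near 0. Over settings, the Tnfrsf9 constitutive median lay between 0.21 and 0.50 (lymph node) and 0.27 and 0.57 (spleen), and the Ifit1 immunoproteasome log2 ratio between 0.25 and 0.46 and between 0.28 and 0.49. Of 312 values of list summaries under an alternative, 219 stayed within the reported interval and 86 left it, and 7 changed the sign of a value whose reported interval left out 0. Over all list summaries, 39 had the other sign. For 2129 values of single members and catalytic shares these counts were 1848, 270 and 11. The changed values follow as log2 ratios, and the cause of a change was not tested. The median of all genes moved by over 0.1 without ribosomal and mitochondrial UMIs for Klrg1 and for both ICRE contrasts, in which it then lay between -0.029 and -0.018. No paired analysis was possible because each tissue has 1 library, and no replicate could be left out. Depth limits single members: with 223 to 549 cells in the Klrg1, ICRE and Ifit1 gates, members under 100 CPM rest on few UMIs. Doublets and free RNA, which can put a gate UMI into a cell that does not express the gene, were not removed.

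With cells thinned to 1200 UMIs, the immunoproteasome sum was 0.042 between tissues, 0.0038 for Foxp3 in spleen, 0.35 for Ifit1 in spleen, 0.26 for Tnfrsf9 in spleen and -0.071 for Ly6c1 in spleen. For the constitutive subunits the median lay at 0.021 for Foxp3 in spleen, 0.035 for ICRE in lymph node, 0.24 for Tnfrsf9 in lymph node, 0.070 for ICRE against Foxp3 in lymph node and 0.032 for ICRE against Foxp3 in spleen.

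With cells weighted equally, the immunoproteasome sum was 0.039 between tissues, 0.026 for Foxp3 in spleen, 0.15 for Klrg1 in lymph node and 0.22 for Tnfrsf9 in spleen. In this setting the constitutive median lay at 0.021 for Foxp3 in spleen, 0.077 for ICRE in lymph node, 0.10 for ICRE in spleen, -0.0061 for Ifit1 in spleen, 0.32 for Tnfrsf9 in spleen, 0.054 for ICRE against Foxp3 in lymph node and 0.040 for ICRE against Foxp3 in spleen. Psmb5 was -0.023 for Foxp3 in spleen.

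With a gate of at least 2 UMIs, the immunoproteasome sum was 0.030 for Foxp3 in spleen, 0.029 for ICRE in lymph node, 0.46 for Ifit1 in lymph node, 0.49 for Ifit1 in spleen and 0.24 for Tnfrsf9 in spleen. Psmb8 lay at -0.011 for Foxp3 in spleen. Psme2 was 0.0067 for ICRE in lymph node. For the constitutive subunits the median lay at -0.012 for ICRE in spleen, -0.20 for Ifit1 in lymph node, 0.50 for Tnfrsf9 in lymph node, 0.57 for Tnfrsf9 in spleen, -0.19 for Ly6c1 in spleen, -0.26 for ICRE against Foxp3 in lymph node and -0.12 for ICRE against Foxp3 in spleen. Psmb9 was -0.046 for ICRE in spleen and -0.011 for ICRE against Foxp3 in spleen. Psmd13 lay at -0.025 for Klrg1 in lymph node.

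With negative cells weighted to the UMIs of positive cells, the immunoproteasome sum was -0.011 for Foxp3 in lymph node, 0.093 for Tnfrsf9 in lymph node and 0.15 for ICRE against Foxp3 in spleen. In this setting the constitutive median lay at -0.041 for Foxp3 in spleen, 0.044 for ICRE in lymph node, 0.083 for ICRE in spleen, 0.042 for Klrg1 in spleen, 0.24 for Tnfrsf9 in lymph node, 0.27 for Tnfrsf9 in spleen and 0.12 for ICRE against Foxp3 in spleen. Psme2b was 0.038 for Foxp3 in spleen.

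Scaled without ribosomal and mitochondrial UMIs, the immunoproteasome sum was -0.17 for ICRE in lymph node, 0.0061 for ICRE in spleen, 0.068 for Klrg1 in lymph node, -0.053 for Klrg1 in spleen, 0.088 for Tnfrsf9 in lymph node, 0.093 for Tnfrsf9 in spleen, 0.058 for Ly6c1 in spleen, -0.20 for ICRE against Foxp3 in lymph node and -0.045 for ICRE against Foxp3 in spleen. For the constitutive subunits the median lay at -0.13 for ICRE in lymph node, -0.052 for ICRE in spleen, 0.040 for Klrg1 in lymph node, 0.048 for Klrg1 in spleen, 0.34 for Tnfrsf9 in spleen, -0.0032 for Ly6c1 in spleen, -0.15 for ICRE against Foxp3 in lymph node and -0.11 for ICRE against Foxp3 in spleen.

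Within cells with a Foxp3 or ICRE UMI, chosen after seeing the data, the immunoproteasome sum was 0.057 for Klrg1 in spleen, 0.11 for Tnfrsf9 in lymph node, 0.080 for Tnfrsf9 in spleen, -0.016 for Ly6c1 in lymph node and 0.058 for Ly6c1 in spleen. Psmb8 lay at -0.045 for Ifit1 in lymph node and 0.022 for Ly6c1 in lymph node. In this setting the constitutive median was 0.33 for Tnfrsf9 in spleen.

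Without cells with at least 2 B cell, myeloid or erythroid UMIs, the constitutive median was 0.16 between tissues, 0.017 for Foxp3 in spleen, 0.063 for ICRE in lymph node, 0.032 for Ifit1 in lymph node, -0.023 for Ifit1 in spleen, 0.079 for ICRE against Foxp3 in lymph node and 0.050 for ICRE against Foxp3 in spleen. Psmb5 lay at -0.0033 for Foxp3 in spleen.

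Without cells with at least 2 cycling UMIs, the immunoproteasome sum was 0.023 between tissues and 0.19 for Klrg1 in spleen. In this setting the constitutive median lay at 0.15 between tissues, -0.00087 for Foxp3 in spleen, 0.047 for ICRE in lymph node, 0.13 for Klrg1 in spleen, 0.092 for ICRE against Foxp3 in lymph node and 0.077 for ICRE against Foxp3 in spleen.

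Without the 6% of cells with the most UMIs, the immunoproteasome sum was 0.032 between tissues, 0.35 for Ifit1 in lymph node and 0.22 for Tnfrsf9 in spleen. For the constitutive subunits the median lay at -0.017 for Foxp3 in spleen, 0.095 for ICRE in lymph node, 0.10 for ICRE in spleen, 0.13 for Klrg1 in spleen, -0.00092 for Ifit1 in spleen, 0.21 for Tnfrsf9 in lymph node, 0.31 for Tnfrsf9 in spleen, 0.085 for ICRE against Foxp3 in lymph node and 0.12 for ICRE against Foxp3 in spleen. Psmb5 was -0.0083 for Foxp3 in spleen.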

Other observations

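Proteasome transcripts varied with the depth of a cell in both tissues. With the cells of each library split into 5 equal groups by total UMIs, the constitutive sum was 4820, 4775, 4627, 4435 and 5468 CPM from the shallowest to the deepest group in lymph node, and 5044, 5253, 5121, 4764 and 5777 CPM in spleen. The deepest group was the highest in each tissue and the one before it the lowest, so the relation was not a steady one. The immunoproteasome sum was 2012, 2096, 2173, 2143 and 2333 CPM in lymph node and 2109, 2291, 2262, 2097 and 2252 CPM in spleen.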
